A study of Mus musculus with 12 samples.

Results

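Conjugating enzymes join a polar group to drugs, steroids, bilirubin and reactive electrophiles so that these can leave the cell and the body. The classes followed here, by their gene names, were the UDP-glucuronosyltransferases (Ugt1, Ugt2 and Ugt3 families, which transfer a sugar from a UDP-sugar donor), the glutathione transferases of the cytosol (Gst genes of the alpha, mu, pi, theta, omega, zeta and kappa classes) and the sulfotransferases (Sult genes, which transfer sulfate from the donor PAPS). Members were all non-control probes whose RefSeq accession belonged to a mouse gene with such a symbol. This gave 46 genes read by 58 probes, of 16535 named genes and 41174 probes on the array. A further 19 RefSeq symbols of these forms, among them the kappa-class gene Gstk1, Gstp2, Sult2a1 and Ugt1a10, matched no probe and are not analysed here. The liver is the main site of conjugation, where nuclear receptors such as Nr1i3 and Nr1i2 are known to drive many of these genes. Stratified epithelia such as that of the esophagus are known for their own members, among them Sult2b1, which sulfates cholesterol.

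The arrays measured RNA from the esophagus and the liver of 6 male mice about 8 months old, on a mixed 129Sv/C57BL6 background. The 3 TG mice were Col1a1tetO-Nanog/+;Rosa26rtTA/+ and carry a doxycycline-dependent Nanog transgene, and the 3 CTR mice were Col1a1+/+;Rosa26rtTA/+, so the controls carry the rtTA activator as well. For 48 h all 6 mice drank water with 7.5% sucrose and doxycycline at 0.2 mg/ml, so sucrose, doxycycline and rtTA are shared by both genotypes and are not tested. The rtTA is expressed from the Rosa26 locus, which is active in most cell types, so the transgene is not restricted to keratinocytes or hepatocytes. The question was whether these enzymes differ between TG and CTR in each organ, and how they divide between the organs. Each of the 4 groups holds 3 arrays, 1 per mouse, and both organs of a mouse carry the same replicate number. The scale throughout is scaled intensity, the log2 of the array's processed spot intensity minus that array's 75th percentile, so that 0 is the 75th percentile of the array. The number of arrays limits the precision: the median standard error of a TG-CTR difference over the members tested was 0.31 in the esophagus and 0.34 in the liver.

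An array had between 56.4% and 81.8% of its probes well above background. The markers followed the organ labels: all 10 hepatocyte markers tested were called higher in CTR liver and all 11 stratified keratinocyte markers higher in CTR esophagus. The Nanog probe stayed at background on all 12 arrays, and the sources used here do not say whether it lies within the transgene, so it does not check the genotype labels. Livers TG 2 and CTR 1 stood apart from the other 4 livers in circadian clock genes: Per2, a clock repressor, read -1.73 and -1.60 there against 0.66 to 1.27 in the others. The TG esophagi had lower means than the CTR esophagi in markers of neighbouring tissue, for all 5 airway, all 7 adipocyte and all 6 heart markers tested, although TG 2 overlapped the CTR arrays for airway and adipocyte markers. In these bulk samples, fewer cells of a type and less RNA per cell cannot be told apart. The organs' RNA was extracted with different kits, and the effect of organ and that of the kit cannot be told apart either.

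Of the 46 genes, 42 were well above background on all 6 liver arrays and 31 on all 6 esophagus arrays, with 30 measured on all 12. No member was below background on every array. The 7 genes seen on no esophagus array were Ugt1a9, Ugt2b1, Ugt2b5, Ugt2b36, Ugt2b38, Sult2a2 and the theta-class gene Gstt4, and the first 5 of these were measured on all 6 livers. Gstt4 was above background on 1 liver and Sult3a1 on 2 livers and 1 esophagus, so neither entered any test. Sult2a2 was above background on 5 livers. Several members are close copies of each other, among them Gsta1 and Gsta2, the Gstm genes of chromosome 3 and the Ugt2b genes of chromosome 5. Gstp1 is a close copy of Gstp2, which matched no probe, and the Ugt1a transcripts of chromosome 1 share their downstream exons. The signal of such a probe can include its relatives, so values are given by probe name and their division among copies is uncertain.

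Most conjugating enzymes were higher in the liver than in the esophagus, and a few were clearly higher in the esophagus. In CTR mice, limma with Benjamini-Hochberg adjustment over 23365 features called 41 of 43 members tested, against 62.4% of all features. Of these, 35 were higher in the liver (34.6% of all features were) and 6 were lower (27.8% of all features). A difference of at least 4-fold in favour of the liver was called for 29 members, against 12% of all features. The median member differed by 3.83 on the log2 scale, beside 0.14 over all features. The 9 Ugt2 genes, Ugt1a9 and Sult1b1 were not above background on every CTR esophagus and entered this test through the liver only. Sult2b1 entered through the esophagus only. The direction of such genes was largely set by the filter, and they are part of these counts. With probes above background in both organs, the median was 2.99. In TG mice, 40 of 44 members were called (63.2% of all features), 35 higher (38.9%) and 5 lower (24.3%) in the liver, with a median of 3.85 beside 0.36. Among TG mice, Sult2a2 and Ugt3a1 also entered through the liver only. The same 39 members were called in both genotypes, each in the same direction. On the slides that held both organs of a genotype, 40 of 41, 41 of 41, 40 of 40 and 40 of 40 called members had the sign of the full comparison. These arrays are part of that comparison and only called members were counted, so this is a description and no independent check.

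**Figure D1:**
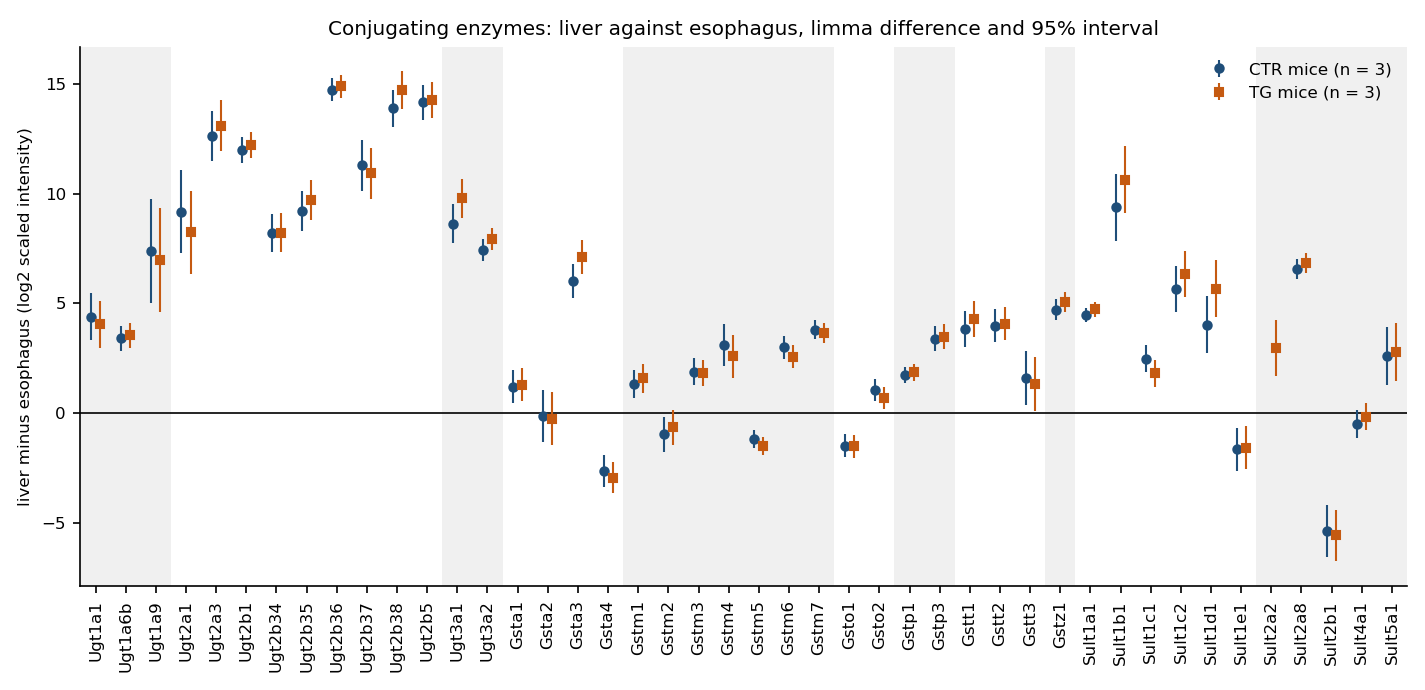
Liver minus esophagus difference in log2 scaled intensity for each member tested, in CTR mice (circles) and TG mice (squares), 3 arrays per organ and genotype, with 95% intervals from the limma fit. Grey bands separate the families. All 9 Ugt2 genes lie above 8, and Sult2b1, Gsta4, Gsto1, Sult1e1 and Gstm5 lie below 0 in both genotypes. Gstm2, Gsta2 and Sult4a1, which were not called in both genotypes, also lie below 0 in both. The Ugt2 genes and Ugt1a9 that were not above background in the esophagus have a lower bound only, given in the text.

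The Ugt2 family, whose products glucuronidate steroids, bile acids and many drugs, showed the widest gap. All 9 genes tested were higher in the liver in CTR mice, by 8.21 to 14.74 on the log2 scale. Ugt2b36 read 6.24, 7.05 and 7.12 in the 3 CTR livers and -8.04, -7.92 and -7.85 in the 3 CTR esophagi, where it was not well above background. The bound for such genes compares the liver mean with the lowest signal among probes well above background on each esophagus array. By that bound, on this scale and with each array's own lowest signal, Ugt2b36 was at least 7516-fold higher in CTR liver, Ugt2b38 at least 5806-fold, Ugt2b5 at least 5118-fold and Ugt2b1 at least 1055-fold. These sizes depend on the floor: with the highest of the 12 arrays' floors set for all arrays, the differences were 10.77, 10.40, 10.22 and 7.94 on the log2 scale, and in the authors' deposited table they were 9.82, 9.53, 9.45 and 7.31. Ugt2a3 was above background on 1 of the 3 CTR esophagi and differed by 12.64 (SE 0.52). Ugt2a1, Ugt2b34, Ugt2b35 and Ugt2b37 were above background on 2 of the 3 and differed by 8.21 to 11.29. None of these bounds or differences sets the level of 1 gene against another.

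The Ugt3 genes, which use other UDP-sugars than UDP-glucuronic acid, followed the same order. Ugt3a1 read 4.75, 5.38 and 4.87 in CTR livers and -3.85, -3.42 and -3.62 in CTR esophagi, a difference of 8.63 (SE 0.41). Ugt3a2 differed by 7.42 (SE 0.23). Within the Ugt1 family, Ugt1a1, the enzyme that conjugates bilirubin, read 1.20, 2.10 and 3.32 in CTR livers and -2.83, -1.62 and -2.11 in CTR esophagi, a 21.0-fold difference (4.39, SE 0.49, adjusted p = 2.09e-05). Its 3 CTR livers spread over more than 2 log2 units, and all 3 lay above all 3 esophagi. Ugt1a6b, a phenol-conjugating form, was well above background in both organs and 10.6-fold higher in the liver. Ugt1a9 was at least 91.6-fold higher in CTR liver by the same bound, against a log2 difference of 4.41 with the common floor and 3.83 in the authors' deposited table. Its 6 livers ran from -2.26 to 2.61, the widest spread of any member measured on all 6 livers.

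Among the glutathione transferases the families divided. Gsta3, an alpha-class enzyme that detoxifies aflatoxin epoxide in mice, read 7.82, 8.88 and 8.46 in CTR livers and 2.71, 2.44 and 1.99 in CTR esophagi, a 64.3-fold difference. Gsta4, the alpha-class enzyme that conjugates the lipid peroxidation product hydroxynonenal, went the other way: it read 0.70, 1.82 and 1.81 in CTR livers against 4.01, 4.34 and 3.92 in CTR esophagi, and was 6.25-fold higher in the esophagus (-2.64, SE 0.33, adjusted p = 4.46e-05). Gsta1 was higher in the liver by 1.20 (SE 0.34, adjusted p = 0.00981), with overlapping arrays, and the call was lost after quantile normalization (0.51, adjusted p = 0.158) and in the authors' deposited table of values (0.45, adjusted p = 0.252). Gsta2 did not pass (-0.13, 95% interval -1.32 to 1.06), and its sign turned under several settings.

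The mu-class genes were split 5 to 2. Gstm7 (3.80), Gstm4 (3.10), Gstm6 (2.99), Gstm3 (1.88) and Gstm1 (1.31) were higher in CTR liver. Gstm5, a form known from brain and testis, was 2.28-fold higher in the esophagus, with 1.69, 1.92 and 1.72 in CTR livers and 2.80, 3.37 and 2.73 in CTR esophagi. Gstm2 was also called higher in the esophagus (-0.97, SE 0.36, adjusted p = 0.0376), but its arrays overlapped, TG mice did not pass (-0.66, adjusted p = 0.134), and the call ended with the replicate number as a block (adjusted p = 0.0629) or without liver CTR 1 (-0.58, adjusted p = 0.136). Gstm1 was lost after quantile normalization (0.40) and in the authors' deposited table (0.55), while its other probe gave 2.11. Gstp1, the pi-class enzyme and a major glutathione transferase of male mouse liver, was 3.30-fold higher in CTR liver, and its second probe gave 2.75 against 1.72 for the probe used. With quantile normalization the probe used gave 0.81, and the authors' deposited table gave 0.80, both past the threshold. Gstp3 was 10.4-fold higher in the liver.

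All 3 theta-class genes tested were higher in CTR liver, with Gstt1 by 3.83, Gstt2 by 3.99 and Gstt3 by 1.59 (adjusted p = 0.0288); in TG mice Gstt3 did not pass (1.33, adjusted p = 0.0581). Gstz1, the zeta-class enzyme that isomerises maleylacetoacetate in tyrosine breakdown, read 5.34 to 6.02 in CTR livers and 0.87 to 1.12 in CTR esophagi, a 26.2-fold difference. The omega-class pair were called in opposite directions. Gsto1, known as a thioltransferase and dehydroascorbate reductase, read 5.17, 5.96 and 5.77 in CTR livers and 7.07, 7.24 and 7.07 in CTR esophagi, 2.81-fold higher in the esophagus (-1.49), with no overlap. This difference was -2.29 with quantile normalization and -2.26 in the authors' deposited table. Gsto2 was 2.05-fold higher in the liver.

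The sulfotransferases held both ends of the range outside the Ugt genes. Sult2b1 read -4.15, -5.44 and -5.18 in CTR livers, where it was above background on 1 of 3 arrays, and 0.56, 1.03 and -0.22 in CTR esophagi, where it was above background on all 3. The difference of -5.38 (SE 0.53, adjusted p = 8.24e-06) favoured the esophagus, and TG mice gave -5.59. Its size rests on dim liver values: it was -3.23 with normexp, -3.49 in the authors' deposited table and -4.43 with the common floor, each past the threshold. Sult1e1, which inactivates estrogens, was 3.16-fold higher in the esophagus (adjusted p = 0.00769), with no overlap between the CTR arrays. The other 5 Sult1 genes tested were higher in CTR liver. Sult1a1, which sulfates phenols, read 5.46, 5.63 and 5.26 in CTR livers and 0.92, 0.98 and 1.03 in CTR esophagi, a difference of 4.47 (SE 0.15). Sult1b1 differed by 9.39 with 1 of 3 CTR esophagi above background, and its second probe gave 6.98. Sult1c2 (5.66), Sult1d1 (4.02) and Sult1c1 (2.47) followed. Sult2a8 (6.56) and Sult5a1 (2.60) were higher in the liver, Sult4a1 did not pass (-0.50, adjusted p = 0.147), and Sult2a2 was tested between the organs of TG mice and not of CTR mice: it read -4.65, -5.04 and -2.41 in TG livers and was above background on no esophagus array.

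Promoter sequence was set beside these organ differences because 32 of the genes called higher in CTR liver and 5 of those called lower had a RefSeq promoter (GRCm38.p6, 250 bases before to 50 after the start). In all, 40 of the 46 members had at least 1, giving 51 promoters, and 14 short motifs were searched on both strands. The members' promoters had a median GC content of 48.7% against 52.7% for all promoters, and those of the Ugt2 genes 34.3%. A match is a stretch of letters, not a bound site. A member was counted when any of its promoters matched, while the shares of all promoters count each promoter singly. The member counts and those shares are therefore not on the same basis.

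TGACTCA, the letters of an AP-1 site, was found in 6 members (5.2% of all promoters), of which Sult2b1 and Gstm5 were called higher in CTR esophagus and Gstp1, Sult1b1, Sult1c1 and Ugt2b37 higher in CTR liver. The Sult2b1 promoter (chr7:45742429-45742728, minus strand) is shown as that of the gene with the widest gap in favour of the esophagus, with the reverse complement TGAGTCA in capitals.
Sult2b1 promoter: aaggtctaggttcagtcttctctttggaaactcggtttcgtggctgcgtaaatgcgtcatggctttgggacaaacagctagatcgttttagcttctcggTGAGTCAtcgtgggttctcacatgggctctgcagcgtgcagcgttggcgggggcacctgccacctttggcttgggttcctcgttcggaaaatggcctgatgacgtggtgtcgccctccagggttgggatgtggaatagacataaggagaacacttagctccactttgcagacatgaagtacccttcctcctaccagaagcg
TGACNNNGC, the core of the antioxidant response element bound by Nfe2l2, was found in Gsta3, Gstm5 and Gstm7, 3 of 40 members against 12.4% of all promoters. The TATA box letters TATAAA stood in 9 members (13.6% of promoters) and the GC box letters GGGCGG in 11 (35.7% of promoters), the latter in Gst genes, Sult1c1 and Sult5a1 and in no Ugt gene with a promoter in the table. Among members with a promoter, GGGCGG stood in 9 of 32 called higher in CTR liver and 2 of 5 called lower. The Gsto1 promoter (chr19:47854723-47855022, plus strand) is that of a gene called higher in CTR esophagus. It is shown with the matches to GGGCGG or its reverse complement CCGCCC in capitals.
Gsto1 promoter: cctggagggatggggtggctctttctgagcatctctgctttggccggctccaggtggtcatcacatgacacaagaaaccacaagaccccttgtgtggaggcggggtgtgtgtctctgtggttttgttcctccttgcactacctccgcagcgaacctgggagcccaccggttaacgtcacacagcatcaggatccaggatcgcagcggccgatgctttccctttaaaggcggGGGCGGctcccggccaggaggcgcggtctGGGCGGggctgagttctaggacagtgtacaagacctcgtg

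Genes of donor supply, use and removal were called in both directions. In CTR liver, 34.6% of all features were called higher and 27.8% lower. Of 6 genes for UDP-glucuronic acid supply, 4 were called higher in CTR liver and none lower, among them Ugdh (2.57), which makes UDP-glucuronic acid, and Slc35d1 (3.50), which carries it into the endoplasmic reticulum. Of 13 genes for glutathione supply and use, 9 were higher and 3 lower in CTR liver. Gclc (3.50), the catalytic subunit of the first enzyme of glutathione synthesis, was higher, while the epithelial peroxidase Gpx2 (-8.33) and the cystine carrier Slc7a11, which was above background on no liver array, were higher in the esophagus. Of 9 genes for sulfate donor supply and removal, 5 were higher and 2 lower. This list also holds Bpnt1, Bpnt2, Tpst1 and Tpst2, which do not supply the donor. The PAPS synthases were called in opposite directions, Papss2 higher in the liver (3.52) and Papss1 higher in the esophagus (-1.95). Of 7 membrane-bound glutathione transferases and relatives of the fold outside the naming rule, Mgst1 was higher in CTR liver (5.05) and the other 6, Mgst2, Mgst3 and Ptges among them, were higher in the esophagus.

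Beside the same shares of all features, 9 of 15 regulators were higher and 1 lower in CTR liver. The xenobiotic receptors Nr1i2 (8.39) and Nr1i3 (7.83) and the bile acid receptor Nr1h4 (8.59) were higher in the liver, and Nfe2l2, the activator of antioxidant genes, was higher in the esophagus (-1.34). Of 9 genes that report Nfe2l2 activity, 3 of which also stand in the glutathione list, 4 were higher in CTR liver (among them Osgin1 and Txnrd1) and 3 in CTR esophagus (Nqo1 with -3.44, Hmox1 with -2.52 and Slc7a11). Of 9 targets of Nr1i3, Nr1i2 and Ahr, 3 were higher and 2 lower in CTR liver, close to the shares of all features. The 6 exporters of conjugates split evenly: Abcc2, Abcc3 (2.90) and Abcg2 (2.73) were higher in CTR liver, and Abcc1 (-5.45), Abcc4 and Abcc5 in CTR esophagus.

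No conjugating enzyme passed the test between TG and CTR in either organ. In the esophagus, limma with Benjamini-Hochberg adjustment called 0 of 32 members and 0 of 23208 features (0%). At an unadjusted p under 0.05, 923 features passed (3.98%), with 6 members, all lower in TG, where 2.11% of features were. The smallest adjusted p of any member was 0.799, for Sult1a1. The median member differed by -0.06, beside -0.00 over all features, and 21 of 32 members were below 0 (50.4% of features were), against 17 of 32 in the authors' deposited table. In 6 members all 3 TG arrays lay below all 3 CTR arrays (6.13% of features did so), and in 1, Gstm3, all lay above (6.32%). The 6 were Sult1a1, Sult1d1, Ugt3a1, Ugt3a2, Gstt1 and Gstz1. All 5 Sult1 genes tested and both Ugt3 genes had a TG mean below CTR, and this held under each of the 4 scalings compared.

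Sult1a1 read 0.24, 0.36 and 0.20 in TG esophagi and 0.92, 0.98 and 1.03 in CTR esophagi, a difference of -0.71 (SE 0.15, 95% interval -1.04 to -0.37). The groups did not overlap, and each was tight. Sult1d1, which sulfates dopamine and other catechols, read -1.37, -0.86 and -3.16 in TG and 0.99, -0.32 and -0.04 in CTR (-2.01, SE 0.59). Its TG 3 array was the lowest and its CTR 1 array the highest, and without TG 3 the difference was -1.33. Ugt3a1 read -5.89, -4.83 and -3.94 in TG, with 2 of 3 arrays above background, and -3.85, -3.42 and -3.62 in CTR (-1.25, SE 0.41); with a floor shared by dim values the difference was -0.32, and without TG 1 it was -0.75. Ugt3a2 read -2.67, -2.48 and -2.01 in TG and -1.72, -1.74 and -1.70 in CTR (-0.67, SE 0.23). Both Ugt3 genes were lowest on TG 1.

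Gsta3 read 1.14, 2.00 and 0.98 in TG and 2.71, 2.44 and 1.99 in CTR (-1.01, SE 0.35), and TG 2 overlapped the lowest control. Its second probe gave -1.02. Sult4a1 differed by -0.67 (SE 0.28) and Sult1e1 by -0.89 (SE 0.44), with overlapping groups. Of the 6 enzymes called higher in CTR esophagus than in CTR liver, 4 had a TG mean above CTR. Gsta4 differed by 0.14 (95% interval -0.58 to 0.87), Gsto1 by 0.15 (-0.39 to 0.69), Gstm5 by 0.06 (-0.36 to 0.47) and Sult2b1 by 0.67 (-0.51 to 1.84). The remaining ones, Sult1e1 (-0.89) and Gstm2 (-0.05), had a TG mean below CTR. None of the 6 passed the test.

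Markers of several other tissues had lower means in TG than in CTR esophagus, with patterns over the arrays that differed between lists. All 9 hepatocyte markers tested were below CTR in TG esophagus, with a median of -1.07. Relative to the mean of the 3 CTR esophagi, their median per array was -1.20, -1.06 and -1.24 in TG 1, TG 2 and TG 3 and -0.55, 0.31 and 0.24 in CTR 1, CTR 2 and CTR 3. Alb read -4.58, -5.54 and -4.83 in TG and -3.26, -1.22 and -1.32 in CTR, while Ttr was above background on no esophagus array. Alb and Apoa1 were above background on 2 TG esophagi and Apoh on 1, so the size of their differences rests on dim values. Apoa1 overlapped, at -4.70, -6.38 and -5.84 in TG and -5.91, -5.01 and -5.15 in CTR. F2 and Ahsg were above background on all esophagus arrays. The airway markers ran at -5.76, -1.33 and -5.24 in TG and 1.99, -1.04 and -0.67 in CTR, and the airway gene Bpifa1 itself read -5.71 to 4.44 in TG and 4.02 to 7.18 in CTR. The heart markers ran at -2.30, -2.29 and -2.26 in TG and 1.57, -1.47 and -0.00 in CTR. The adipocyte markers ran at -2.63, 0.04 and -2.57 in TG and 0.67, 0.07 and -0.54 in CTR. The 3 red blood cell markers tested were below CTR as well (median -0.98), at -1.28, -0.83 and -0.83 in TG and 0.51, 0.20 and -0.59 in CTR. So were 7 of 8 leukocyte markers (median -0.45), 4 of 4 nerve and glia markers (-0.31) and 12 of 16 clock genes (-0.75), with Per2 at -2.92, -2.46 and -0.73 in TG and -0.41, 0.26 and 0.26 in CTR. Cholangiocyte markers (3 of 5 below CTR, median -0.42) and macrophage markers (3 of 3, -0.34) were lower too. Other lists were near 0: keratinocyte markers had a median difference of -0.06, skeletal muscle -0.13 (4 of 7 below), smooth muscle 0.07 (2 of 5) and stomach 0.05 (1 of 3). Of 7 endothelial markers, 6 were above CTR. Over all features tested, 50.4% were below CTR. No gene of these lists was called. The part of these tissues, of blood or of the clock in the Sult1, Ugt3 and Gsta3 values was not tested.

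**Figure D2:**
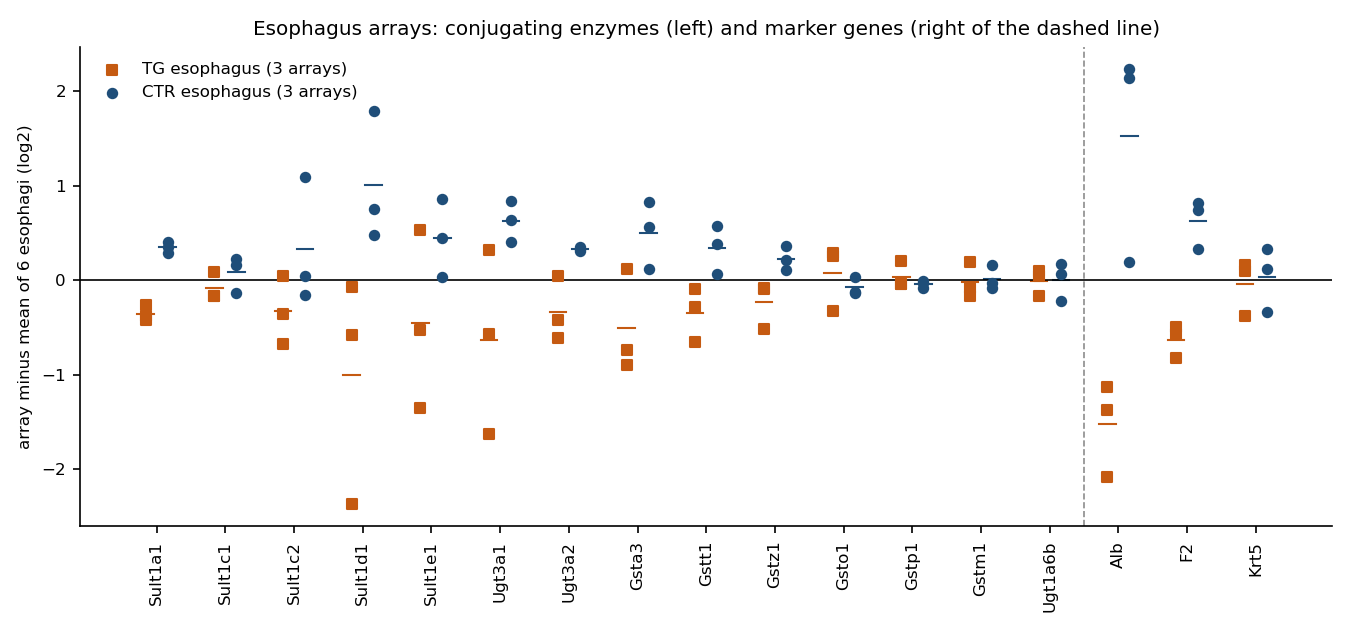
Scaled intensity on each esophagus array minus the mean of the 6 esophagi (log2), for 14 members and, right of the dashed line, the hepatocyte markers Alb and F2 and the keratinocyte marker Krt5; squares are the 3 TG arrays, circles the 3 CTR arrays, and short lines the group means. The TG arrays of Sult1a1, Sult1d1, Ugt3a1, Ugt3a2, Gstt1, Gstz1, Alb and F2 lie below their CTR arrays, and those of Gstm1, Gstp1, Gsto1, Ugt1a6b and Krt5 overlap.

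In the liver, 0 of 43 members and 0 of 21247 features (0%) were called. At an unadjusted p under 0.05, 1770 features passed (8.33%), with 2 members, both lower in TG (2.23% of features were). Sult1a1 read 5.05, 4.83 and 5.14 in TG livers and 5.46, 5.63 and 5.26 in CTR livers (-0.44, SE 0.15, 95% interval -0.77 to -0.11, adjusted p = 0.580), with no overlap. It was therefore lower in TG on all arrays of both organs, which came from the same 6 mice, and passed in neither. Sult1c1 read 0.33, 0.22 and 0.61 in TG and 0.51, 1.67 and 1.44 in CTR (-0.82, SE 0.27, adjusted p = 0.574), with TG 3 above CTR 1. Gstm5 was the other member with all TG arrays below CTR (2.87% of features), at -0.26 (SE 0.19), and Ugt2b1 the member with all TG arrays above (8.42%), at 0.38 (SE 0.27). Sult1e1 differed by -0.81 (SE 0.44) and Gsto2 by -0.43 (SE 0.22), with overlap.

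The median member differed by -0.01 in the liver, beside 0.13 over all features, and 22 of 43 members were below 0 against 33.5% of all features. That background moved with the scaling: the median of all features was 0.13 with the 75th percentile, 0.10 with normexp background correction, 0.02 with quantile normalization and 0.02 in the authors' deposited table. Ugt2 members ran from -0.48 to 0.43, Gstm from -0.26 to 0.26 and Gsta from -0.16 to 0.22. The 95% interval of Ugt2b36 was -0.41 to 0.63 and that of the Ugt1a6b probe used -0.44 to 0.68, so a change of 1 log2 unit lay outside them. The second Ugt1a6b probe, also above background on all 6 livers, gave -0.75 (SE 0.47). For Ugt1a6b the limit therefore holds for the probe used only. For Ugt1a9 the interval was -3.11 to 1.54. None of the donor, regulator, reporter or export lists had a member called between TG and CTR in either organ. Among their lowest unadjusted p-values, Gclm was higher in TG esophagus (0.53, SE 0.18), and Nr1i2 read -6.19, -6.15 and -5.89 in TG esophagi, where it was not above background, and -3.87, -5.32 and -4.43 in CTR esophagi, while Gpx2 (1.06, SE 0.33) and Ptges (1.07, SE 0.31) were higher in TG liver.

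**Figure D3:**
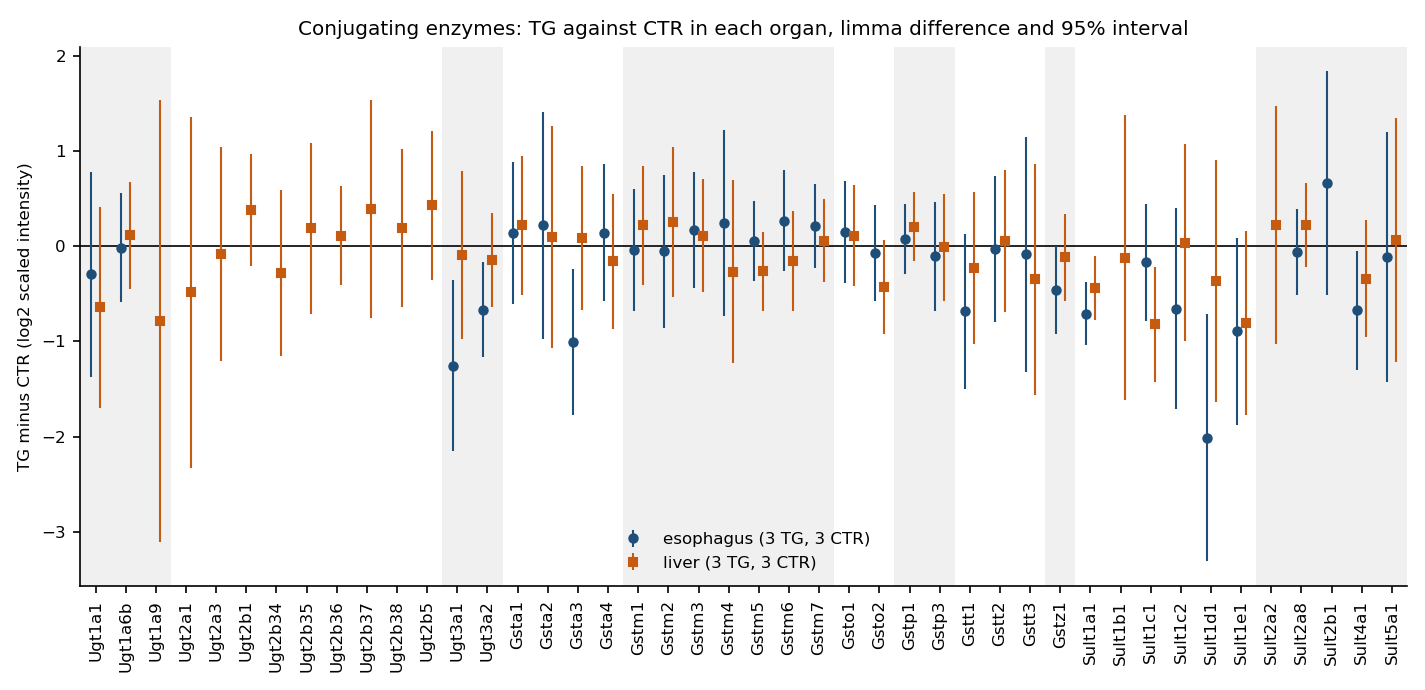
TG minus CTR difference in log2 scaled intensity for each member tested, in the esophagus (circles) and the liver (squares), with 95% intervals from the limma fit to 3 TG and 3 CTR arrays per organ. The largest departures from 0 are those of Sult1d1 (-2.01), Ugt3a1 (-1.25) and Gsta3 (-1.01) in the esophagus; no member passed the adjusted threshold in either organ.

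The difference between the organs' TG effects was tested as an interaction (esophagus minus liver). It called 0 of 31 members and 0 of 20017 features (0%), and 1133 features had an unadjusted p under 0.05 (5.66%). Gsta3 was the member among them, at -1.09 (SE 0.48, 95% interval -2.15 to -0.04, adjusted p = 0.854). Sult1d1 gave -1.64 (SE 0.81) and Ugt3a1 -1.16 (SE 0.56). Sult1a1 gave -0.27 (SE 0.21), so its esophagus and liver differences were not shown to differ. The median member gave -0.09, beside -0.11 over all features, and 19 of 31 members were below 0 (62% of features were).

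Many conjugating enzymes were lowest in the livers TG 2 and CTR 1, which stand apart in clock genes and belong to different genotypes. Both arrays lay below the other 4 livers in 23 of 43 members, against 11.9% of 21203 features, and both lay above in 1 member, Sult5a1, against 11.6%. This is a description of 2 samples, with no test. Under normexp, quantile normalization and the authors' deposited table the count was 23, 20 and 22 of 43. In the esophagi of the same replicate numbers, which come from the same mice, both lay below in 5 of 32 members (10.5% of features) and above in 3 (4.83%).

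The pattern was found in all 4 Gsta genes, all 3 Gstt genes and both Ugt3 genes. It was found in 6 of 9 Ugt2, 4 of 7 Gstm, 2 of 3 Ugt1 and 2 of 6 Sult1 genes. None of the Gstz, Gsto or Gstp genes and none of the 4 Sult2 to Sult5 genes tested had it. The genes given here were chosen after their values were seen. Gsta2 read 2.53 and 2.20 in TG 2 and CTR 1 against 3.67 to 4.37 in the others. Gstt3 read 3.32 and 3.12 against 4.07 to 5.49, and Gstm4 0.72 and 0.81 against 1.73 to 2.68. Sult1c2 read 0.52 and 0.84 against 1.56 to 2.13. Gstp1, at 9.51 and 9.37 against 8.92 to 9.47, did not share the pattern. Sult5a1 read 1.72 and 1.70 against -0.72 to 0.70. Among the 6 livers, the members' median per array relative to the liver mean was 0.06, -0.28 and 0.23 in TG 1 to TG 3 and -0.52, 0.38 and 0.08 in CTR 1 to CTR 3.

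**Figure D4:**
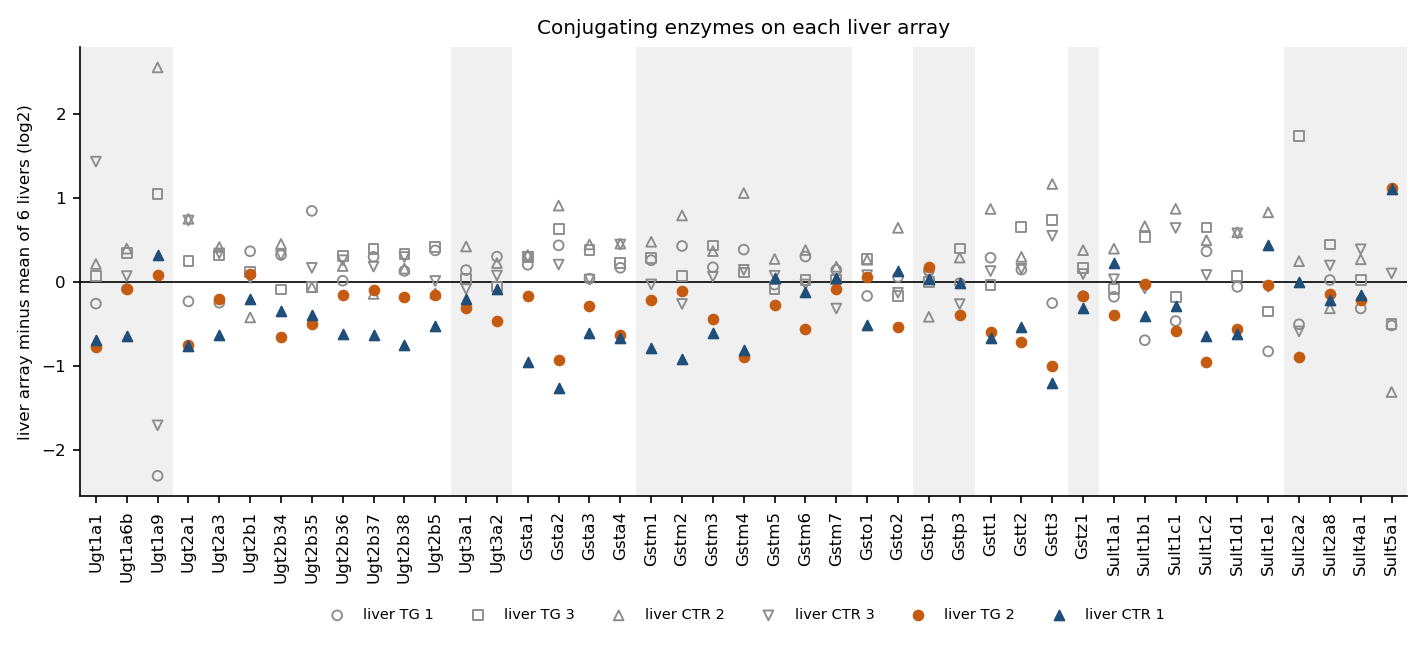
Scaled intensity on each liver array minus the mean of the 6 livers (log2) for the 43 members tested in the liver; filled symbols are livers TG 2 and CTR 1, open symbols the other 4, and grey bands separate the families. In 23 members both filled symbols lie below all open ones, and in Sult5a1 both lie above.

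The same count was 9 of 14 for clock genes, the list by which these livers were singled out. In other lists it was 3 of 3 for red blood cell markers, 7 of 15 for regulators and 4 of 6 for exporters of conjugates. It was 4 of 8 for targets of Nr1i3, Nr1i2 and Ahr, 3 of 11 for glutathione supply and use and 1 of 10 for hepatocyte markers. Over all features it was 11.9%. Both livers lay above the others in 2 regulators, 1 glutathione gene and 1 hepatocyte marker (11.6% of features). Sulfate donor supply and removal had 3 of 9 below and 2 above, and the UDP-glucuronic acid supply list 2 of 6 below and 1 above. Cholangiocyte markers had 0 of 4 below and 2 above, and macrophage markers 0 of 4 below and 1 above. Nr1i3 read 1.31 and 1.60 in TG 2 and CTR 1 against 2.96 to 3.56 in the others, Por, the reductase that serves cytochrome P450 enzymes, 5.72 and 5.32 against 6.46 to 7.58, and Ugp2, which makes UDP-glucose, 4.08 and 4.15 against 5.17 to 5.44. Slc35b1, of the same UDP-glucuronic acid supply list as Ugp2, went the other way, at 5.40 and 5.11 against 4.49 to 4.86. Alb ranged from 9.75 to 10.16 over the 6 livers. The part of sampling time or of any other property of these mice in the members' values was not tested. Without both livers, 0 members were called between TG and CTR in the liver, with a median of -0.06; Sult1a1 gave -0.35 (adjusted p = 0.463) and Sult1c1 -1.08 (adjusted p = 0.0983). The liver-esophagus counts were then 40 of 43 in CTR and 41 of 44 in TG, and the CTR median 4.22.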

How the data were processed

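Each array is a 1-colour Agilent scan read with Feature Extraction 10.7.1.1, per the file headers. The deposited processed spot intensity is background-subtracted and detrended within an array, and arrays are not scaled to each other, per the file headers. The authors' deposited table holds log2 values whose quantiles are shared by all 12 arrays, with limma named in the submitters' processing notes; it was used as an alternative, and the sources used here do not give its background treatment. Values here are log2(processed intensity) minus the array's 75th percentile (8.88 to 10.1), after leaving out 1311 outlier spots; no spot was saturated. A gene takes its brightest probe, and 11 members have several. Of the probes, 23374 were named through RefSeq accessions and 17800 were tested unnamed.

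A linear model with 4 groups over all 12 arrays was fitted with limma 3.58.1 (lmFit, eBayes) in R 4.3.3, with Benjamini-Hochberg adjustment over the features tested and a threshold of 0.05. Tests covered features whose 3 arrays in at least 1 of the compared groups were well above background, and for the interaction in both organs. An exact permutation of 3 against 3 arrays cannot go below p = 0.1. The series' design text calls the mice biological replicates. Liver and esophagus of a number come from the same mouse, and their deviations from the group means correlated at -0.09 to 0.15; the animal as a block was an alternative. All arrays were scanned on 1 day on 5 slides, and slide was an alternative as a fixed and as a random block. The fit was checked on simulated data.

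The members, gene lists and tests were chosen with earlier results of these data known. Genes were named by these rules: 12 fixed members (of which Gstk1 matched no probe), the 5 smallest p-values in each direction between genotypes, the 10 largest organ differences and lower bounds in each direction, and up to 4 genes of each other list; all members are accounted for. Alternatives also covered normexp on the median signal and local background (offset 50; the scanner files used here hold no mean signal column), quantile normalization, the filter on dim probes, a common floor, array weights and leaving out arrays. Promoters were matched with Python 3.11.15. The promoter motifs and regulators not described in the text are not reported here.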

Additional observations from a re-analysis of the deposited data

How the results depend on the processing

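The count of members called between TG and CTR was 0 in the esophagus, in the liver and for their difference under each alternative run, the arrays left out included. Over the settings that left out arrays, the median member ranged from -0.11 to -0.02 in the esophagus, -0.22 to 0.15 in the liver and -0.25 to 0.08 for the difference. For liver against esophagus, they called 39 to 41 members in CTR (median 3.69 to 4.22) and 39 to 42 in TG (median 3.70 to 3.99). The CTR median was 3.50 with normexp, 3.37 in the authors' deposited table, 2.99 with probes above background in both organs, and 4.22 without liver CTR 1 or without both livers TG 2 and CTR 1. The TG median was 3.04 in the authors' table and 2.58 with probes above background in both organs, a filter that left 30 members and called 26. That filter removes the genes measured in 1 organ only. With the replicate number as a block, 40 members were called in CTR and 40 in TG; with the animal as a block, 41 in each, so that the pairing moved no count of calls by over 1.5 times. Gstm2 lost its organ call under 11 settings, and Gsta1 and Gstm1 under quantile normalization and the authors' table; the cause was not tested. Signs turned for Gstm7 in TG esophagus with normexp (-0.032), for Gstm1 in TG liver in the authors' table (-0.082) and without liver CTR 1 (-0.12; range to 0.52 over arrays left out), and for Gsta2 between CTR organs with slide as a fixed block (0.032), array weights (0.14), without esophagus CTR 2 (0.025), without liver CTR 1 (0.48) and without both livers (0.48; range from -0.61); none of these passed. Signal over background limits what can be said of the Ugt2 genes, Ugt1a9, Sult1b1 and Ugt3a1 in the esophagus and of Sult2b1 in the liver.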
